A study of Homo sapiens with 5 samples.

Results

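The FGF pathway genes described here were 3 ligands (FGF2, FGF4 and FGF8), the 4 receptor tyrosine kinases (FGFR1, FGFR2, FGFR3 and FGFR4), the feedback genes SPRY4 and DUSP6, and the transcription factor gene ETV4. They were taken by their gene names from the deposited expression table, and all 10 were found among its 33857 listed genes. The cells were H9, a human embryonic stem cell line, and the assay was sequencing of poly(A)-selected RNA. The mock control group held 2 samples, which the labels call only control cells of the H9 line. The study describes its mock controls as 2 clones that had received the CRISPR/Cas9 plasmid without a guide RNA. The CFIm25-m group held 3 clones, each edited near the start codon of NUDT21, the gene that encodes CFIm25. The labels call these clones CFIm25 KO, whereas the study describes them as knockdown mutants that keep a low amount of a protein with a short N-terminal deletion. By the study's description, all cells of both groups were grown in mTeSR medium on Matrigel with no treatment. It also describes puromycin selection and single-cell cloning of its CRISPR/Cas9 cultures, without naming the mock controls separately. Each CFIm25-m sample was 1 clone, so a difference between clones could not be separated from a difference between cultures, and the p-values measure only the spread between these samples.

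Fibroblast growth factors are secreted proteins that bind receptor tyrosine kinases together with heparan sulfate chains at the cell surface. The activated receptor recruits adaptors, which switch on RAS and the RAF, MEK and ERK kinase relay. ERK then induces its own inhibitors, the Sprouty proteins and the phosphatase DUSP6, and transcription factors of the ETV1, ETV4 and ETV5 group. Human embryonic stem cells depend on FGF signalling for self-renewal, and mTeSR supplies FGF2 in the medium, so the FGF2 transcript is not the only source of the ligand in these cultures. CFIm25 is a subunit of the cleavage factor that helps to choose where a transcript is cut and polyadenylated.

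The question the comparison addresses here was whether these genes differed between CFIm25-m and mock control cells. Of the 10 genes, 1 was higher in CFIm25-m and 2 were lower. DUSP6, which encodes a cytoplasmic phosphatase that switches off ERK, rose 2.78-fold, from 498 ± 23.0 normalized counts in mock control (SD, n = 2) to 1383 ± 407 in the clones (SD, n = 3). FGF4, a ligand made by early embryo cells, fell from 99.7 ± 10.5 to 19.0 ± 11.3, and its mock control mean was 5.24 times its CFIm25-m mean. FGFR3 fell from 2723 ± 100.2 to 1632 ± 362, a ratio of 0.599. FGF2, FGF8, FGFR1, FGFR2, FGFR4, SPRY4 and ETV4 did not pass the test.

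The test was limma-trend on log2(normalized count + 1) over the 19232 genes that reached 10 normalized counts in 2 or more samples, with Benjamini-Hochberg adjustment over all of them and a threshold of 0.05. All 10 FGF pathway genes passed that filter. Over all tested genes 361 passed the threshold, which is 1.88%, with 0.941% higher and 0.936% lower in CFIm25-m. Scaling by total reads gave 238 higher and 147 lower in place of 181 and 180. Of the FGF pathway genes 7 had groups whose values did not overlap, against 36.8% of all tested genes. Their median log2 difference was -0.17, and that of all tested genes was -0.011. In bulk RNA, fewer cells of one type and less RNA per cell cannot be told apart.

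Upstream sequences are shown for DUSP6, the member that rose, for SPRY4, the feedback gene that did not pass the test, and for FGFR3, the receptor that fell. Each is the 250 bases before the gene start in RefSeq, build GRCh38.p14, written 5′ to 3′ on the strand of the gene. Capitals mark the letters CGGAA or their reverse complement TTCCG, a longer form of the GGAA core that ETS transcription factors such as ETV4 bind. The shorter letters GGAA were not marked, and they also occur in the SPRY4 window. This motif of CGGAA was chosen after the sequences had been read. DUSP6 lies on the minus strand and its window is chr12:89352502-89352751. SPRY4 also lies on the minus strand, with the window chr5:142324248-142324497. FGFR3 is on the plus strand, with the window chr4:1793043-1793292.
DUSP6: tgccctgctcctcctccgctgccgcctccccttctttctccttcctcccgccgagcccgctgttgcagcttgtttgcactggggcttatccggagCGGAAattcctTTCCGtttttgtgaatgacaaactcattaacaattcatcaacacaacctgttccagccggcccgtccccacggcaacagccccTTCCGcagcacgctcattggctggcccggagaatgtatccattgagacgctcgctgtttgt
SPRY4: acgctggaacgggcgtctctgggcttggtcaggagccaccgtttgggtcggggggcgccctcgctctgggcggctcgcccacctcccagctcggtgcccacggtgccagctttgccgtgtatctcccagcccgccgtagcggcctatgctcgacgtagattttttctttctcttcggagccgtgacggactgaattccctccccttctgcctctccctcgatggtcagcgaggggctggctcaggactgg
FGFR3: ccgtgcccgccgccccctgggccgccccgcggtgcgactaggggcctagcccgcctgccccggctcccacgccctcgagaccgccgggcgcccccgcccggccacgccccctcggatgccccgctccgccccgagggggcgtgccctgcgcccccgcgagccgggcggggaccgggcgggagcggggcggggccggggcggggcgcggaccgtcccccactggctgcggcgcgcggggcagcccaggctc

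The DUSP6 window held 3 matches to CGGAA on either strand, which began 155, 144 and 61 bases before the gene start, and the SPRY4 and FGFR3 windows held 0, as did those of FGF2, FGFR2 and FGFR4. Of the 35116 RefSeq windows of this length, 30.3% held at least 1 match. The letters GGGCGG, an Sp1-type GC box, occurred 8 times in the FGFR3 window, 1 time in that of SPRY4 and 0 times in that of DUSP6 on either strand. FGFR4 had 7 and 0 matches in its 2 windows, FGF2 had 3, and the 5 windows of FGFR2 had 0 to 3. The letters were present in 42.6% of all windows. TATAAA was in none of these 3 windows and in 10.7% of all. The FGFR3 window was 86.8% G or C, the SPRY4 window 65.6% and the DUSP6 window 57.2%, with a median of 58.0% over all windows. The windows of DUSP6 and SPRY4 lie inside the gene intervals of the deposited table, which begin further upstream than the RefSeq starts. Windows of 6 of the 10 genes are described. Any window on chromosome 8, where FGFR1 lies, was left out before this count, so FGFR1 is not described here. A match of letters is a description of the sequence, not a binding site.

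The edited gene NUDT21 gave 6503 and 6398 normalized counts in the controls, against 4035, 3281 and 3400.2 in the clones of CFIm25-m (replicates 1, 2 and 3). All 3 clones were below both controls, with a log2 difference of -0.86 (SE 0.11, adjusted p = 0.00431 by limma-trend). The recovered depth was 18754108 to 23372391 reads per sample. The 8 embryonic stem cell markers had summed levels of 179579.9 to 183100.4 in mock control and 155346.1 to 162245.5 in CFIm25-m. Of these, ZFP42 was called and was nearly absent from the clones, at 4.01, 3.60 and 0 normalized counts against 2306 and 2403 for the controls. The other 7 were at 852 or higher in every sample. The largest falls in mean count were those of LIN28A (56465 to 43124) and DNMT3B (56650 to 45180), not that of ZFP42. Every clone was below both controls for LIN28A, DNMT3B and NANOG, and above both for POU5F1 and TDGF1. SOX2 and L1TD1 overlapped. LIN28A and DNMT3B did not pass (adjusted p = 0.292 and 0.293 by limma-trend). The 5 fibroblast markers summed to 16124 to 16505 and 13347 to 16597, of which COL1A1, COL1A2, THY1 and PDGFRB were at 503 or higher in every sample and COL3A1 was at 1.00 to 9.65. The neuroectoderm markers summed to 13257 to 13967 and 10997 to 14148, nearly all from NES. Summed endoderm markers were 16.4 to 25.4 and 30.6 to 43.1, with SOX17 and FOXA2 at 3 reads or fewer in every sample and GATA6 at 0.900 to 4.01. The endoderm marker whose own values did not overlap was CXCR4, at 13.8 and 4.83 against 20.045, 27.9 and 23.1, whereas GATA4 gave 9.22 and 8.69 against 17.0, 1.80 and 5.77. Mesendoderm and mesoderm markers summed to 100.3 to 110.0 and 84.2 to 108.7, and trophoblast or amnion markers to 160.2 to 184.3 and 150.1 to 275.6. Apart from ZFP42 no marker was called, and the part of these cell types in the results below was not tested.

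**Figure D1:**
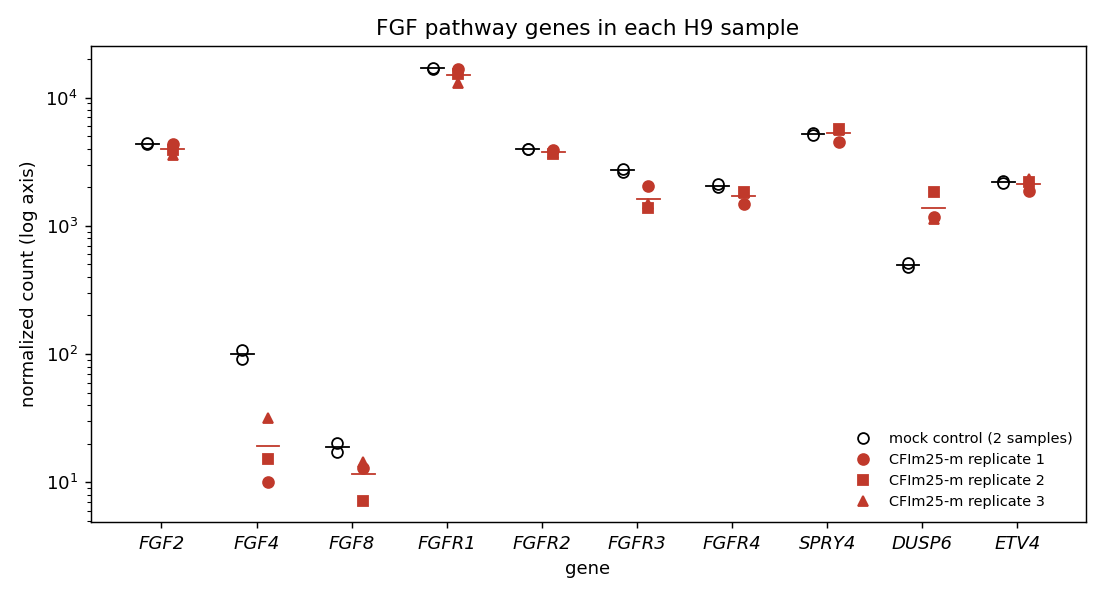
Normalized counts (y axis, log scale) of the 10 FGF pathway genes (x axis) in the 2 mock control samples and the 3 CFIm25-m clones, 1 point per sample. DUSP6 lies higher in all 3 clones, between 1126 and 1852 against 482 and 514, and FGF4 lies lower, between 10.02 and 31.7 against 92.2 and 107.

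Among the ligands FGF2, FGF4 and FGF8, FGF2 was by far the most abundant per length and only FGF4 was called. FGF2, the ligand that is also added to the medium, had normalized counts of 4308 and 4418 in mock control and of 4381, 3892 and 3565 in CFIm25-m replicates 1, 2 and 3. The groups overlapped, since CFIm25-m replicate 1 lay between the controls. Its log2 difference was -0.15 with a 95% interval of -0.38 to 0.08 (adjusted p = 0.530 by limma-trend).

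FGF4 signals in the inner cell mass of the embryo and is a target of OCT4 and SOX2. Its normalized counts were 92.2 and 107 in mock control and 10.02, 15.3 and 31.7 in CFIm25-m replicates 1, 2 and 3. Every clone was below both controls, and the clones differed among themselves by more than the controls did. The log2 difference was -2.48 (SE 0.43, 95% interval -3.43 to -1.53, adjusted p = 0.0202 by limma-trend), the 38th most negative of the 19232 tested. These values rest on 80 and 111 reads in the controls and on 10, 17 and 33 reads in the clones. FGF4 was called by both edgeR and DESeq2, but lost its call when either control was left out (adjusted p = 0.0920 without replicate 1 and 0.135 without replicate 2) or without CFIm25-m replicate 1 (0.0758) or replicate 2 (0.0819). FGF4 lies on chromosome 11 from 69771016 to 69775403 on the minus strand.

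FGF8, a ligand of the primitive streak and of organising centres in the embryo, was near the low end of what was measured. It had normalized counts of 17.3 and 20.3 in mock control and of 13.0, 7.20 and 14.4 in CFIm25-m, from 8 to 21 reads per sample. The groups did not overlap, but the log2 difference of -0.70 had a 95% interval of -1.65 to 0.24 (adjusted p = 0.469 by limma-trend).

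Of the receptors, FGFR3 fell and the other 3 did not pass the test. FGFR1, a high-affinity receptor for FGF2 and the most abundant of the 4 per length, had normalized counts of 16824 and 17144 in mock control and of 16664, 15252 and 13109 in CFIm25-m. No value of one group fell within the other, although replicate 1 was only just below the lower control. The log2 difference was -0.19 with a 95% interval of -0.45 to 0.08 (adjusted p = 0.502 by limma-trend).

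FGFR2 gave 3938 and 3958 in mock control and 3923, 3606 and 3689 in CFIm25-m. The clones lay just below the controls, with a log2 difference of -0.08 (95% interval -0.28 to 0.12, adjusted p = 0.705 by limma-trend). FGFR4 gave 1993 and 2109.6 against 1482, 1837 and 1805. All 3 clones were again below the controls, with replicate 1 the lowest, and the log2 difference of -0.27 had a 95% interval of -0.52 to -0.02 without passing after adjustment (adjusted p = 0.295 by limma-trend).

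FGFR3, a receptor known from its activating mutations in skeletal dysplasia, had normalized counts of 2652 and 2794 in mock control and of 2047, 1377 and 1471 in CFIm25-m. Replicate 1 was the nearest to the controls and replicates 2 and 3 were lower still. Its log2 difference was -0.76 (SE 0.15, 95% interval -1.10 to -0.42, adjusted p = 0.0378 by limma-trend). Both edgeR and DESeq2 called it, whereas scaling by total reads did not (-0.69, adjusted p = 0.0560), and neither did the limma-trend fits without mock control replicate 1 (adjusted p = 0.172), mock control replicate 2 (0.250) or CFIm25-m replicate 2 (0.108). The log2 differences of all 4 receptors were negative in each of the 15 alternatives run.

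**Figure D2:**
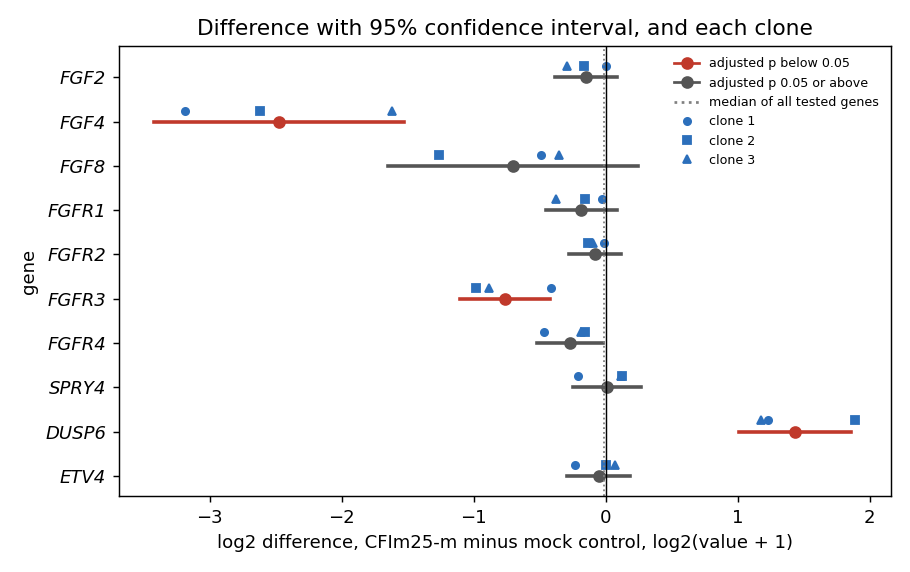
Log2 difference, CFIm25-m minus mock control, on the log2(value + 1) scale (x axis) for each of the 10 genes (y axis). Bars are 95% intervals from limma-trend and the dotted line is the median of all tested genes, -0.011. DUSP6 lies to the right at 1.43, and FGF4 at -2.48 and FGFR3 at -0.76 lie to the left.

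To see how the receptor mixture differed, normalized counts were divided by the gene length of the deposited table in kb, and each receptor was given as a share of the 4-receptor sum. FGFR3 made up 20.3% and 20.8% of the sum in mock control and 17.2%, 12.7% and 14.4% in CFIm25-m. Its share was thus smaller in every clone, with means of 20.5% ± 0.336 (SD, n = 2) and 14.8% ± 2.30 (SD, n = 3) and a difference of -5.78 percentage points. FGFR2 took 19.3% and 18.8% against 21.1%, 21.2% and 23.1%, a larger share in every clone, although its own counts were below the controls there. FGFR1 took 45.1% and 44.6% against 49.1%, 49.1% and 44.9%, and the replicate 3 value lay between the controls. FGFR4 took 15.3% and 15.7% against 12.5%, 17.0% and 17.7%, with clones on both sides of the controls.

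The summed receptor level per kb was 2695 and 2774 in mock control and 2451, 2242 and 2111 in CFIm25-m, lower in all 3 clones. With 2 samples against 3 the 10 arrangements cannot give a two-sided exact permutation p below 0.1, so none of these 5 values could pass 0.05. The exact p was 0.1 for the sum and for FGFR2, 0.2 for FGFR3, 0.3 for FGFR1 and 1 for FGFR4, or 0.25, 0.25, 0.333, 0.375 and 1 after Benjamini-Hochberg adjustment over the 5. Without division by length the FGFR3 difference was -3.24 points. The exact permutation p was then 0.1 for FGFR3, 0.2 for the sum, 0.3 for FGFR2 and 0.4 for FGFR1. The order of these p-values thus depended on the division by length.

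**Figure D3:**
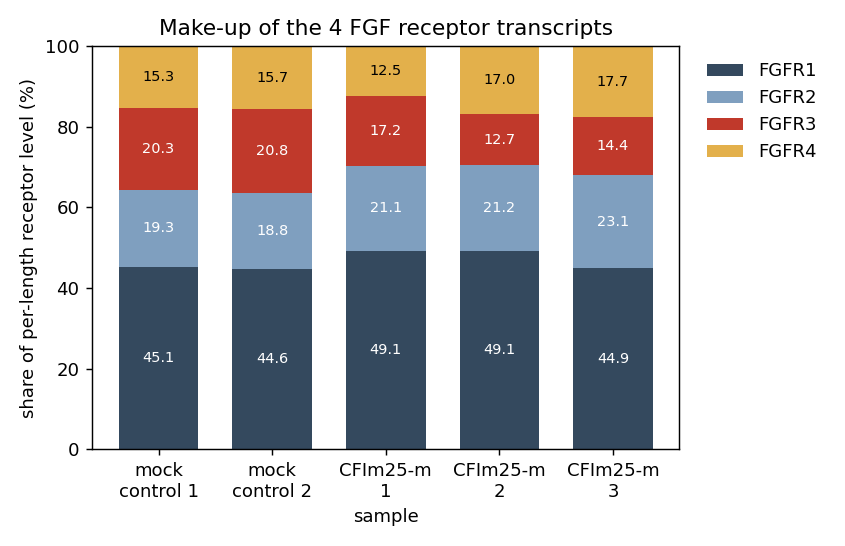
Share of each receptor in the summed per-length level of the 4 FGF receptors (y axis, percent) in each of the 5 samples (x axis). The FGFR3 segment takes 20.3% and 20.8% in mock control and 12.7% to 17.2% in CFIm25-m.

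Of the 2 feedback genes and ETV4, DUSP6 rose while SPRY4 and ETV4 did not pass the test. DUSP6 had normalized counts of 482 and 514 in mock control and of 1171, 1852 and 1126 in CFIm25-m replicates 1, 2 and 3. Every clone was more than 2-fold above both controls, and replicate 2 was the highest. The log2 difference was 1.43 (SE 0.19, 95% interval 1.01 to 1.86, adjusted p = 0.00584 by limma-trend), and DUSP6 ranked 70th of the 19232 by p. The call held in 14 of 15 alternatives, each sample left out included, and was lost without the mean-variance trend (adjusted p = 0.121).

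SPRY4, a Sprouty protein that restrains signalling upstream of ERK, had normalized counts of 5250.1 and 5149 in mock control and of 4490.1, 5660.1 and 5628 in CFIm25-m. Replicate 1 was below the controls and replicates 2 and 3 were above them. The log2 difference of 0.01 had a 95% interval of -0.25 to 0.27 (adjusted p = 0.982 by limma-trend), and its sign depended on the sample left out.

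ETV4, an ETS-family transcription factor induced by ERK, gave 2231 and 2174 in mock control and 1874, 2204 and 2318 in CFIm25-m. The groups overlapped, with replicate 2 between the controls. Its log2 difference was -0.05 with a 95% interval of -0.29 to 0.19 (adjusted p = 0.852 by limma-trend), and its sign turned with total-read scaling (0.016).

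Within each sample the DUSP6 level was set against that of SPRY4, as a description chosen after the values had been seen. The log2 ratio of normalized counts was -3.45 and -3.32 in mock control and -1.94, -1.61 and -2.32 in CFIm25-m, so the ratio was higher in every clone. Against ETV4 DUSP6 had a mean log2 ratio of -2.15 in mock control and -0.66 in the clones.

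Per kb of gene length, the order of levels in mock control was FGFR1 (1227), SPRY4 (792), FGF2 (644), ETV4 (611), FGFR3 (562), FGFR2 (521), FGFR4 (425), DUSP6 (108), FGF4 (30.8) and FGF8 (13.4). The ranges of neighbours in that order did not overlap, with 2 samples each. The deposited length is a single value per gene, and the lengths of the transcripts present were not measured. The order between genes and the per-length receptor shares rest on that value. In CFIm25-m the order was FGFR1 (1084), SPRY4 (801), ETV4 (591), FGF2 (582), FGFR2 (493), FGFR4 (354), FGFR3 (337), DUSP6 (299), FGF8 (8.23) and FGF4 (5.88). Here the ranges of ETV4 and FGF2, of FGFR4 and FGFR3, of FGFR3 and DUSP6, and of FGF8 and FGF4 overlapped. DUSP6 stood well below FGFR3 in mock control, and in CFIm25-m it was above FGFR3 in replicate 2 (400 against 284 per kb) and below it in replicates 1 (253 against 422) and 3 (243 against 303).

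**Figure D4:**
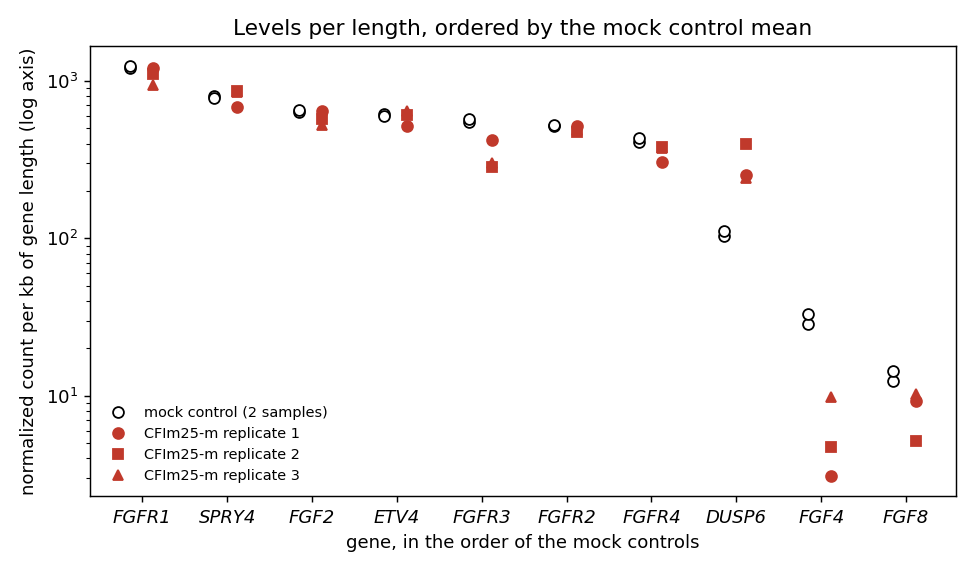
Normalized count per kb of gene length (y axis, log scale) of the 10 genes, in the order of the mock controls (x axis), 1 point per sample. Of the 3 DUSP6 points of CFIm25-m, 243, 253 and 400, the highest lies within the FGFR3 range there, 284 to 422, and the others lie below it. In mock control DUSP6 lies at 104 and 111 and FGFR3 at 547 and 576.

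Some counts share their position with another gene, and the sources do not state whether the counting used the strand. DUSP6 is covered over 2257 bases by the antisense gene AC024909.2, whose normalized counts were 3.46 and 2.90 in mock control and 10.02, 24.3 and 15.4 in CFIm25-m (log2 difference 1.99, adjusted p = 0.0881 by limma-trend). It passed the filter only through the clones, where it is higher. Those counts are small beside the 482 to 1852 of DUSP6, but reads of the shared stretch cannot be told apart without strand. FGF2 overlaps NUDT6 on the opposite strand over 9540 bases (0.29, adjusted p = 0.551 by limma-trend) as well as AC021205.1 and AC021205.3. The whole of ETV4 lies opposite DHX8, over 51777 bases, and DHX8 had a log2 difference of -0.21 (adjusted p = 0.333 by limma-trend). FGFR1 overlaps LETM2 (-0.02, adjusted p = 0.979 by limma-trend), RPS20P22, AC087623.1 and AC087623.3, and SPRY4 overlaps SPRY4-AS1 (0.03, adjusted p = 0.982 by limma-trend), RF02038 and RF02039. FGF4, FGF8, FGFR2, FGFR3 and FGFR4 overlapped no other listed gene.

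The wider pathway was described with 7 lists of 99 genes in all, of which 97 were listed and 88 tested. Of those 88, 4 were higher and 3 were lower in CFIm25-m, beside 0.941% and 0.936% of all tested genes, and the median log2 difference over the lists was -0.08. One of the 4, FGF9, could be tested only because it was high in the clones. Without the 10 FGF pathway genes, 78 were tested, of which 3 were higher and 1 was lower.

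Of 18 secreted FGF ligands 16 were listed and 9 tested, with FGF9 higher and FGF4 lower. The shares over all tested genes were 0.941% higher and 0.936% lower. FGF9 had normalized counts of 5.76 and 3.86 in mock control and of 37.1, 29.7 and 30.8 in CFIm25-m (log2 difference 2.54, SE 0.38, adjusted p = 0.00908 by limma-trend). It passed the filter only through the clones, so it had to differ to be tested, and its call was lost without mock control replicate 2 (adjusted p = 0.0749) or CFIm25-m replicate 1 (0.0705). FGF19, an endocrine ligand, had 250.1 and 279 against 95.2, 132 and 200.1 without passing (-0.95, adjusted p = 0.123 by limma-trend). FGF22 and FGF16 gave 0.29 and -0.22 and did not pass either. The median of the 9 ligands was -0.15.

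Of the 3 tested intracellular FGF homologous factors, which bind sodium channels or microtubules and not FGF receptors, FGF13 was lower, beside 0.936% of all tested genes. Its normalized counts were 1532 and 1634 in mock control and 923, 1114 and 904 in CFIm25-m (log2 difference -0.70, adjusted p = 0.0157 by limma-trend). FGF12 gave 0.54 (adjusted p = 0.137 by limma-trend) and FGF11 gave -0.15, and neither passed. FGF13 lost its call without either control (adjusted p = 0.119 and 0.209) or without CFIm25-m replicate 1 (0.0843).

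Receptors and co-receptors added FGFRL1, a receptor without a kinase domain, at -0.39 (adjusted p = 0.137 by limma-trend), KLB at 0.10 and KL below the filter. Their median was -0.23 over 6 tested genes.

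Heparan sulfate proteoglycans and their enzymes held 18 tested genes, of which 1 was higher and 0 were lower. Over all tested genes 0.941% were called higher and 0.936% lower. GPC4, a glypican of the cell surface, had normalized counts of 8347 and 8354 in mock control and of 11886, 14097 and 11954 in CFIm25-m (log2 difference 0.59, adjusted p = 0.0252 by limma-trend). It lost the call when any sample but CFIm25-m replicate 3 was left out (adjusted p = 0.331, 0.329, 0.0775 and 0.0546). HSPG2, the perlecan gene, gave 0.03, NDST1, which starts heparan sulfate sulfation, gave -0.23, and HS6ST1, a sulfotransferase, gave -0.49, and none of these passed. DESeq2 also called GPC6 and HS6ST1.

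None of the 20 genes of the RAS-ERK relay was called by limma-trend, edgeR or DESeq2. With limma-trend 1.88% of all tested genes were called, so 0 of 20 is near that share. Of the relay genes 2 had an unadjusted p below 0.05 with limma-trend, beside 2911 of all 19232 tested genes. The log2 differences of the relay genes lay between -0.24 and 0.24. The adaptor SHC1 gave -0.10, the phosphatase PTPN11 -0.22 and the phospholipase PLCG1 0.07.

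Among 14 ERK feedback inhibitors DUSP6 was the only one called, beside 1.88% of all tested genes, and the median was 0.02. CBL, a ubiquitin ligase for receptors, gave -0.28 (adjusted p = 0.217 by limma-trend), SPRED1 0.08 and IL17RD -0.15, without passing. SPRY1 gave -0.49 (adjusted p = 0.0866 by limma-trend) and was called by DESeq2. Of 18 ERK-responsive targets IER3, an immediate early gene, was called, beside 1.88% of all tested genes. IER3 had normalized counts of 153 and 161 in mock control and 275, 509.6 and 350.1 in CFIm25-m (log2 difference 1.21, adjusted p = 0.0279 by limma-trend). Its call was lost without either control (adjusted p = 0.143 and 0.112) or CFIm25-m replicate 2 (0.0516). CCND1, PHLDA1 and IER2 gave -0.22, 0.46 and -0.15 and did not pass, although DESeq2 called PHLDA1. ETV5, the paralogue of ETV4, gave 0.42 (adjusted p = 0.179 by limma-trend).

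**Figure D5:**
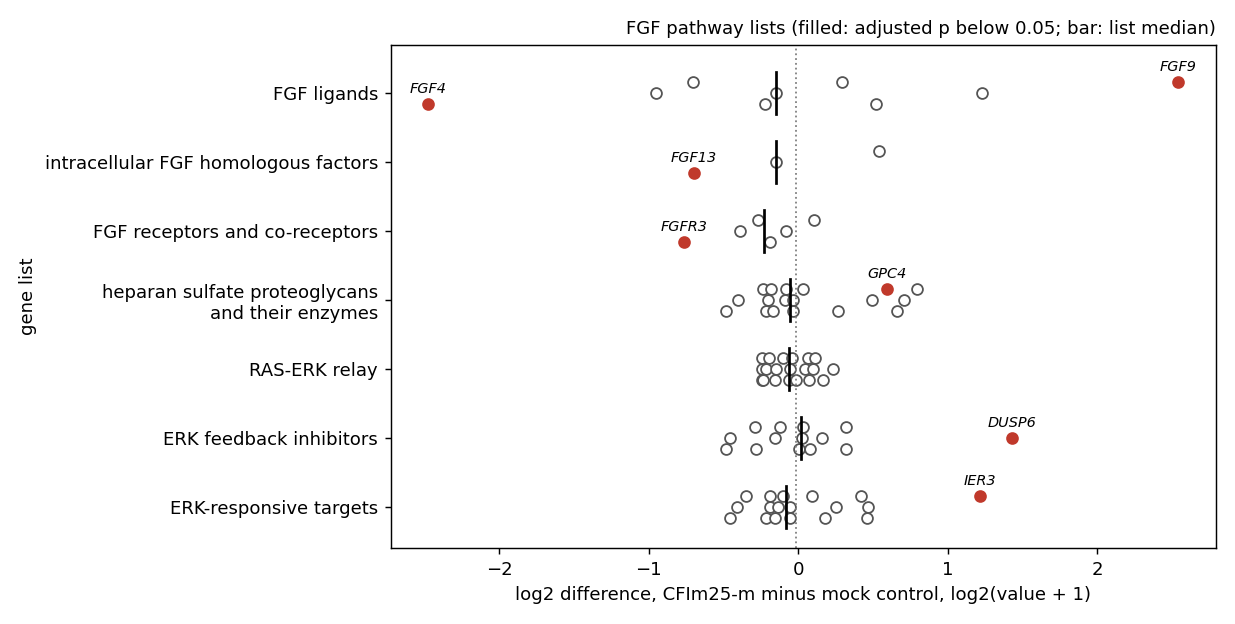
Log2 difference, CFIm25-m minus mock control, of each tested gene (x axis) in the 7 pathway lists (y axis). Filled points have an adjusted p below 0.05, vertical bars are list medians and the dotted line is the median of all tested genes. The 20 RAS-ERK relay genes lie between -0.24 and 0.24, and the ligands reach from -2.48 to 2.54. The ligand extremes are FGF4 and FGF9, with at most 111 and 37 reads in any sample. FGF9 passed the filter only through the clones.

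The tested genes with the pattern most like that of FGF4 were ZNF662 and MSX2. The measure was the root mean square difference of log2 values, centred per gene, over the 5 samples, and it was 0.27 and 0.29. Both were low, with at most 19 reads in any sample, and neither passed the test.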

How the data were processed

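Poly(A)-selected RNA of 5 H9 samples (2 mock control, 3 CFIm25-m) was sequenced, and samples were grouped by their labels. According to the submitters' processing notes, HISAT2, featureCounts (Subread) and DESeq2 were used with hg38; versions, the annotation release and the strand setting are not given in the sources used here. The authors deposited normalized counts, a signal made by dividing each sample's read counts by 1 size factor. All values were whole multiples of 1 step per sample (tolerance 0.01), which gave back whole reads for 100% of values. Counts per gene do not separate 3′ end isoforms. The authors' group means, log2 fold changes and p-values in the same table were not used.

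Normalized counts were fitted with limma 3.58.1 in R 4.3.3 (lmFit, eBayes with a trend) on log2(value + 1), which understates changes of low genes. Genes with at least 10 in at least 2 of the 5 samples were tested. Alternatives were edgeR 4.0.16 and DESeq2 1.42.0 on whole reads, scaling by TMM or total reads, no filter, a filter of 50, pseudocounts of 0.1 and 5, no trend, a replicate block, and fits without each sample in turn. The fits were tested on simulated data. The named genes were the members, NUDT21, the called genes and up to 3 abundant others of each list, overlapping genes, and the 3 genes nearest in pattern to the member with the largest change; other genes were named after their values were seen, and the result for 1 gene that fell under this rule is not given. The members and lists were chosen with earlier results of these data known. Upstream sequences came from RefSeq (GRCh38.p14).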

Additional observations from a re-analysis of the deposited data

How the results depend on the processing

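FGF2, FGF8, FGFR1 and FGFR2 kept their direction and were not called in any alternative that gave a value (15 each, 13 for FGF8, which the filter of 50 removed and to which DESeq2 gave no adjusted p). Without the mean-variance trend DUSP6 (1.43, adjusted p = 0.121), FGF4 (-2.48, 0.135), FGFR3 (-0.76, 0.221) and NUDT21 (-0.86, 0.106) lost their limma calls, so that 0 of the 10 genes (3 at an unadjusted p below 0.05, while edgeR and DESeq2 called 3), 1 list gene in place of 7, and 21 higher and 25 lower genes were called. With total-read scaling FGFR3 was not called (-0.69, adjusted p = 0.0560 by limma) and ETV4 changed sign (0.016). DESeq2 called 349 higher and 279 lower genes and 11 list genes. Without division by length the share differences were 1.63 points for FGFR2 and -3.24 for FGFR3.

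With a sample left out, the range was -2.90 to -2.12 for FGF4, -0.93 to -0.65 for FGFR3, 1.20 to 1.56 for DUSP6, -0.95 to -0.80 for NUDT21, -0.05 to 0.12 for SPRY4 and -0.12 to 0.04 for ETV4. NUDT21 lost its call without either control (adjusted p = 0.0618 and 0.0557 by limma). SPRY4 was at -0.0056 without mock control replicate 2, -0.049 without CFIm25-m replicate 2 and -0.044 without replicate 3, and ETV4 at 0.037 without replicate 1. The called genes were 31 to 520 higher and 33 to 524 lower, 1 to 3 of the 10 genes and 1 to 20 list genes; without CFIm25-m replicate 3 there were 520 higher and 524 lower, and fewest without a control. Only DUSP6 of the 10 genes was called without mock control replicate 1, mock control replicate 2 or CFIm25-m replicate 2. A fit that leaves out a control rests on 1 control, assumed to vary like the clones. The cause of these changes was not tested.

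Replicate numbers shared by the groups come from the labels alone, and deviations of same-numbered samples had correlations of 0.00717 and 0.0180. With 2 controls the deviations of one mirror those of the other, so these values cannot show whether samples were handled in pairs. The main fit used no pairing. A replicate block gave 1043 higher and 1064 lower genes, 28 list genes, FGFR4 called (-0.31, adjusted p = 0.00315 by limma) and SPRY4 at -0.044. No control has the number of CFIm25-m replicate 3, so that clone gave this fit no information on the difference. Its log2 differences therefore equal those of the fit without replicate 3. FGF8 rests on 8 to 21 reads per sample, and whether depth sets its missing call was not tested.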

Other observations

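DUSP6 belongs to the dual-specificity phosphatases, a family of which 23 genes were listed by symbol and 22 tested. DUSP6 was the 1 gene of the family called higher and 0 were called lower, beside 0.941% and 0.936% of all tested genes. The family median was -0.02 on the log2 scale. DUSP3, which acts on ERK and JNK, came next by adjusted p, with a log2 difference of -0.52 (adjusted p = 0.0628 by limma-trend) and normalized counts of 1269 and 1374 in mock control and 999, 976 and 804 in CFIm25-m. DUSP4, a nuclear phosphatase that acts on ERK, gave 448 and 445 against 698, 647 and 387. Its replicate 3 was below the controls and the other clones were above them. DUSP5 gave -0.45, DUSP7 -0.29, DUSP9 0.03 and DUSP10 -0.90 without passing. The family was examined after the DUSP6 value had been seen.

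Of 22 ETS-family genes, to which ETV4 belongs, 21 were tested and 1 was called, beside 1.88% of all tested genes. Their median was -0.13. The called gene was ELF3, an epithelial ETS factor, with normalized counts of 354 and 369.6 in mock control and of 174, 159 and 123 in CFIm25-m (log2 difference -1.26, adjusted p = 0.00677 by limma-trend). This family, too, was chosen after values had been seen.

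FGF4, FGF19 and CCND1 lie near each other on chromosome 11, with FGF4 from 69771016 to 69775403, FGF19 from 69698232 to 69704642 and CCND1 from 69641087 to 69654474. Their log2 differences were -2.48, -0.95 and -0.22, of which that of FGF4 alone passed the test.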
